A study of Mus musculus with 9 samples.

Results

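The genes described here were bright in mouse embryonic fibroblasts (MEF), dim in embryonic stem (ES) cells, and still well above the ES level in all 4 clones of induced pluripotent (iPS) cells made from fibroblasts. They were chosen by level: a probe had to be well above background in MEF, at least 5 times as bright in MEF as in ES, and at least 3 times as bright as ES in every clone. HOX, collagen, integrin, laminin and Serpin genes were left out, which removed 4 probes (Hoxa7, Hoxa9, Hoxa10 and Lama4). The rule kept 95 of 20868 probes, and 88 of them carried a name, for 86 genes. The MEF, ES and clone levels that chose the probes are given below as a description, without a test.

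RNA of 9 cell samples was labelled with Cy3 and hybridised once each to single-colour Agilent arrays. The clones came from MEF with the bgeo reporter knocked into Fbx15, a gene specific to ES cells. Their MEF received retroviral vectors for 3 factors (clones 1 and 2), 4 factors (1 clone) or 10 factors (1 clone), were kept in ES cell culture conditions and were selected with G418 for 16 days. The labels do not name the factors or say whether the clones grew on feeder cells. Unselected MEF, also Fbx15 bgeo-KI, had received the 4 factors but no G418, and gave no iPS clones. NIH3T3 HRasV12 are a mouse fibroblast line transformed by a retrovirus for active HRas. The other array that the rule did not use came from a spontaneously immortalised wild-type MEF line carrying a further transgene, and it enters only counts over these 3 arrays. MEF were from Fbx15-null mid-gestation embryos, and the ES cells were Fbx15-null and grown on STO cells, a fibroblast feeder line. Each clone is a single clone, and the MEF and ES levels each rest on 1 array, so the spread between cultures of either was not measured.

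When fibroblasts are reprogrammed, the network that maintains fibroblast identity is shut down and the pluripotency network is switched on, and partly reprogrammed lines can go on expressing genes of the cell of origin. Fibroblasts are mesenchymal cells that secrete and pull on collagen matrix. They respond to transforming growth factor beta (TGF-beta), wounding and serum, and in culture they build up cell cycle inhibitors. ES cells lack most of this programme.

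Levels are given as relative signal, the processed signal of a probe divided by the 75th percentile of its array, so 1 is a moderately bright probe. The lowest value used was 0.0363. Differences are log2 of such ratios. Each array had 52.4% to 59.6% of its probes well above background. The 75th percentile was between 167 and 300 signal units, and repeated spots of a probe had a median SD of 0.10 to 0.16 on the log2 scale. Per the file headers, both 3-factor clones shared a scan date. The 4-factor clone, the 10-factor clone, MEF and ES shared another, and the remaining arrays were scanned on other dates. Each array had its own slide. In bulk RNA, fewer cells of a type and less RNA per cell cannot be told apart.

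Fibroblast markers were looked at beside the chosen probes, with the limit that the rule leaves out collagens, which are among the markers. Of 13 measured fibroblast markers, all were well above background in MEF, and the mean of the clones was below MEF for all 13. The median ratio of MEF to the clones was 26.1, and the median ratio of the clones to ES was 0.759. Of the 9 markers that met the MEF condition, 0 were at least 3 times ES in every clone, where 13.4% of all such probes were, so a count this small is near that background. Their summed relative signal was 66.3 to 141 in the clones, against 624 in MEF and 73.9 in ES. Col1a1, a chain of type I collagen, was at 0.417 and 0.336 in the 3-factor clones, 0.363 with 4 factors and 0.862 with 10 factors, against 58.0 in MEF and 0.376 in ES. Lum, a collagen-binding proteoglycan, was not well above background in any clone or in ES and was at 1.71 in MEF. S100a4, a calcium-binding protein, stood nearest to MEF, with 53.8 to 116 in the clones, 120 in MEF and 52.3 in ES.

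Other cell types were checked in the same way. The 6 smooth muscle and myofibroblast markers summed to 5.12 to 8.69 in the clones, against 357 in MEF and 4.97 in ES. The 7 macrophage markers summed to 0.625 to 0.942 in the clones, against 0.936 in MEF and 0.528 in ES, and 5 of them, among them Csf1r, Ptprc and Lyz2, were not well above background in any clone. The 7 epithelial markers summed to 16.5 to 79.1 in the clones, against 6.48 in MEF and 20.9 in ES. Of 8 measured ES cell markers, 3 and 4 were well above background in the 3-factor clones, 7 with 4 factors and 8 with 10 factors, against 1 in MEF and 8 in ES. Their summed relative signal was 32.5 to 73.7 in the clones, against 0.335 in MEF and 506 in ES. For these markers the median ratio of the clones to ES was 0.0417. The part of contaminating cells in the levels of single genes was not tested.

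**Figure D1:**
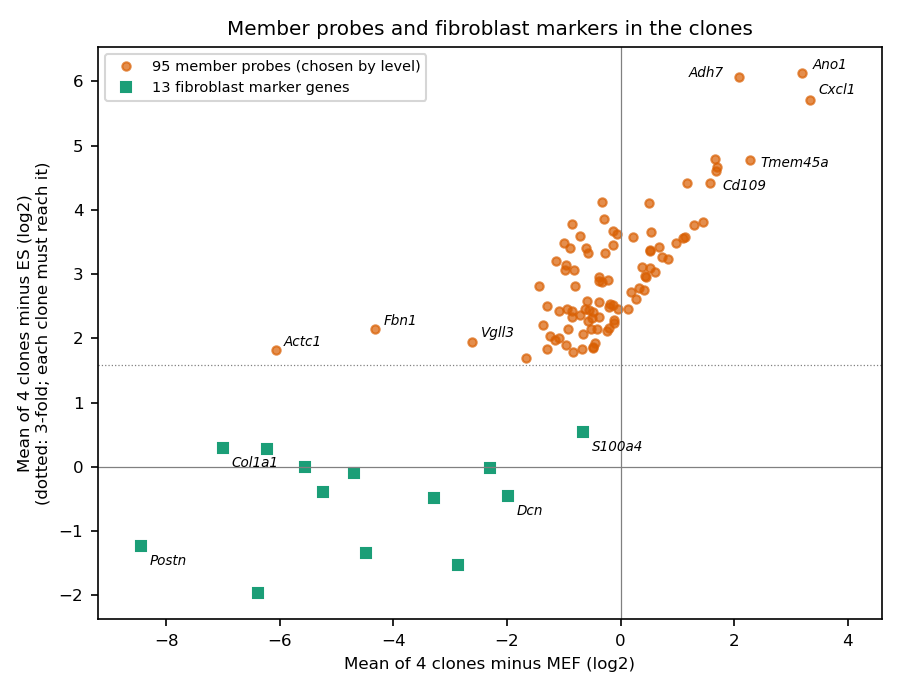
Mean of the 4 clones minus MEF (x, log2) against mean of the 4 clones minus ES (y, log2), for the 95 chosen probes (circles) and 13 fibroblast markers (squares). The markers lie left of 0 and near or below 0 on the y axis, with S100a4 (-0.66) nearest to MEF. The chosen probes lie above 3-fold over ES by choice, mostly near 0 against MEF. Where ES was not well above background its value is the floor, so the height of a chosen probe is a lower bound. For the marker Lum the clones and ES are both at the floor.

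All 95 probes were well above background in all 4 clones, against 50.8% of all probes; the rule nearly fixes this, since every clone had to reach a level of 0.109 or more. In ES 14 were not well above background. The mean of the clones was between 3.24 times ES (Snx7) and at least 70.1 times ES (Ano1), with a median of 7.08. Over all probes, 3.53% met the MEF condition and 1.4% the clone condition. Both were met by 99 probes, or 13.4% of the 737 probes that met the MEF condition, before the gene families were removed. The levels covered a wide range: 46 chosen probes had a relative signal over 1 in every clone and 26 were under 1 in every clone.

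Set against MEF, the mean of the clones was within 2-fold for 69 of the 95 probes. It was at least 2-fold above MEF for 13 probes and at least 2-fold below for 13. Over the 12184 probes above background in MEF or in all clones, 13.4% were at least 2-fold above and 16.5% at least 2-fold below. The median difference, clones minus MEF, was -0.32 for the chosen probes and -0.03 over those 12184 probes. It was -2.64 for the 638 probes that met the MEF condition but were not chosen or removed as a family. The mean of the clones was above MEF for 32 of the 95 and for 49% of the 12184. In 24 probes all 4 clones were above MEF and in 41 all 4 were below, but the same counts over all probes were not made. Since the clone condition helps to fix these differences, they are a description.

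**Figure D2:**
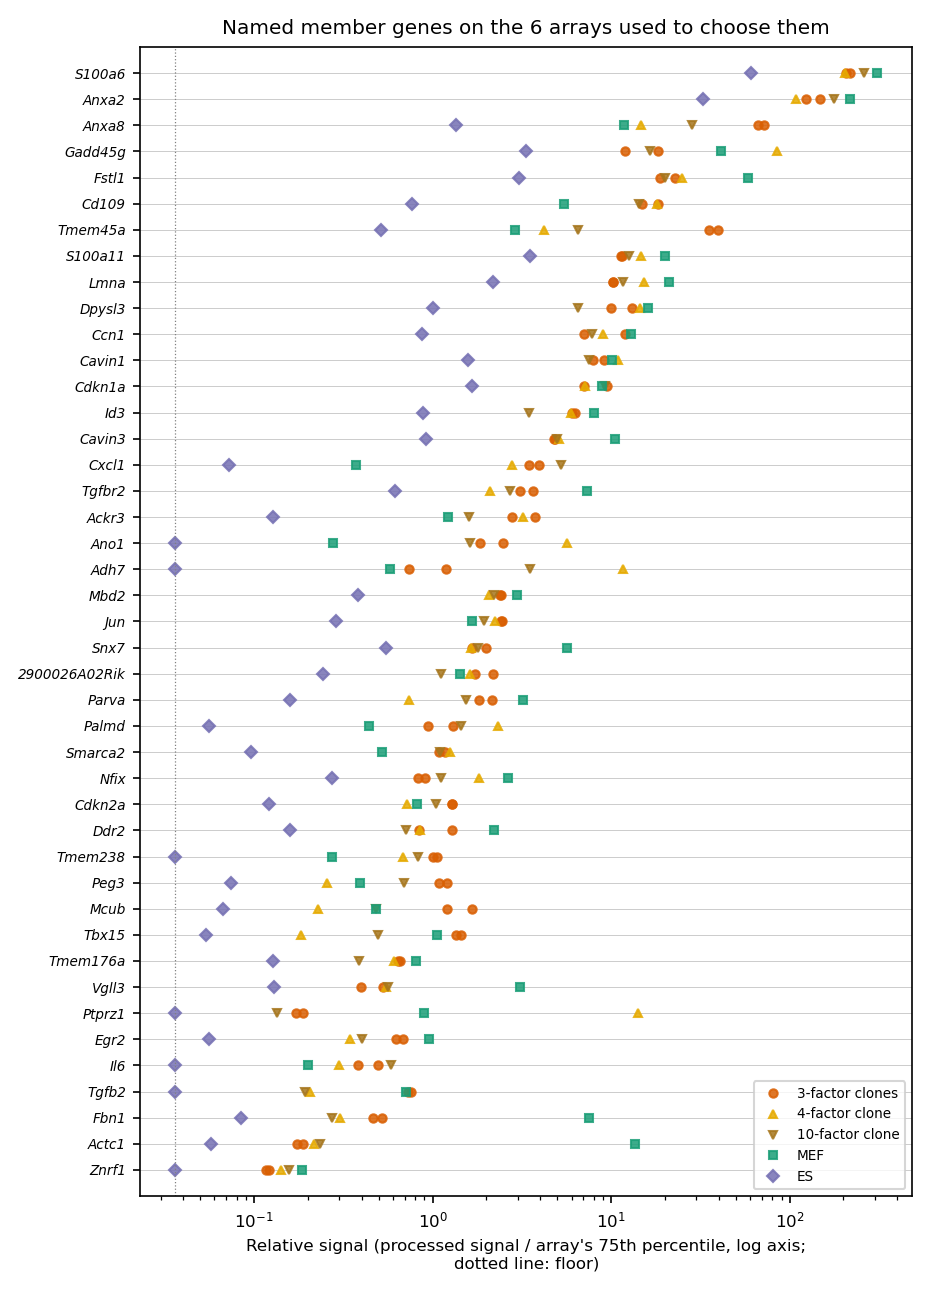
Relative signal (log axis) of 43 named genes on the 6 arrays used to choose them, ordered by the mean of the clones. ES (diamonds) is lowest in every row by choice; MEF (squares) is within 2-fold of the mean of the clones for 69 of all 95 probes, far above them for Actc1 and Fbn1, and below them for Cxcl1 and Ano1.

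The brightest probes included those of calcium-dependent membrane proteins. S100a6, an S100 calcium-binding protein of proliferating cells, was at 206 and 217 in the 3-factor clones, 204 with 4 factors and 261 with 10 factors, against 308 in MEF and 61.1 in ES. Its spot was saturated in the 10-factor clone and in MEF, so these 2 values are lower limits. Anxa2, an annexin that links membranes to actin, was at 148, 123, 108 and 177 in the clones in the same order, against 217 in MEF and 32.7 in ES. For Anxa2 every clone lay between MEF and ES, while the order of the 10-factor clone and MEF is unknown for S100a6. S100a11, a partner of annexins, was at 11.4, 11.5, 14.7 and 12.6 in the clones, against 20.1 in MEF and 3.52 in ES. Anxa8 had the reverse order to MEF: it was at 71.4 and 66.6 in the 3-factor clones, 14.7 with 4 factors and 28.4 with 10 factors, against 11.8 in MEF and 1.36 in ES. Every clone was thus above MEF. Of 7 genes of the annexin and S100 list that met the MEF condition (6 annexin or S100 genes, and Ahnak), 3 were kept, Anxa8, S100a6 and S100a11, against 13.4% of such probes in all. Anxa2 was named from the words of its probe description and stands outside that count. Anxa1 and Anxa5, the brightest in MEF of the 3 annexin or S100 genes that were not kept, were 5.45 and 6.33 times brighter in MEF than in the clones.

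Genes of the nuclear lamina, caveolae and the cell surface are given next. Lmna, which encodes lamins A and C of the nuclear lamina and is low in ES cells, was at 10.3 in both 3-factor clones, 15.3 with 4 factors and 11.7 with 10 factors, against 21.2 in MEF and 2.18 in ES. Cavin1, a coat protein that shapes caveolae, was at 7.89, 9.09, 10.9 and 7.52 in the clones, against 10.1 in MEF and 1.57 in ES. Clones and MEF overlapped for Cavin1. Its relative Cavin3 was at 4.87, 4.79, 5.1 and 4.98 in the clones, against 10.5 in MEF and 0.919 in ES, an SD of 0.04 on the log2 scale among the clones and the narrowest of the 95 probes. A second probe of Cavin1 was dimmer, at 0.0542 to 0.14 in the clones, against 0.115 in MEF and not well above background in ES. Of 4 caveola genes that met the MEF condition, Cavin1 and Cavin3 were kept, against 13.4% of all such probes. Ehd2 and Cav1, which encodes the caveolin that forms caveolae, were 4.56 and 3.71 times brighter in MEF than in the clones. Nes, which encodes the intermediate filament protein nestin, met the MEF condition, was not kept and was 5.58 times brighter in MEF than in the clones. Of 14 genes of the adhesion and surface list that met the MEF condition 1 was kept, Cd109, against 13.4% of all such probes. This surface protein, which binds TGF-beta, was at 18.2, 14.8, 18 and 14.3 in the clones, against 5.42 in MEF and 0.762 in ES, so that every clone was above MEF. A second chosen probe of Cd109 gave 3.69, 3.21, 3.7 and 2.08 in the clones, against 1.13 in MEF and 0.22 in ES, in the same order. Lgals1 and Emp3, the brightest in MEF of the list's genes not kept, were 4.41 and 1.56 times brighter in MEF than in the clones.

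Genes of the TGF-beta pathway were kept at 4 of 14 that met the MEF condition, against 13.4% of all such probes. The ligand Tgfb2 was at 0.753 and 0.729 in the 3-factor clones, 0.205 with 4 factors and 0.193 with 10 factors, against 0.711 in MEF, and was not well above background in ES. The 3-factor clones were thus at the MEF level and the other two clones lower. The receptor Tgfbr2 was at 3.63, 3.08, 2.09 and 2.73 in the clones, against 7.28 in MEF and 0.617 in ES. Among genes that respond to the pathway or its relatives, Id3, an inhibitor of helix-loop-helix factors, was at 6.03, 6.24, 5.97 and 3.47 in the clones, against 8.02 in MEF and 0.88 in ES. Ccn1, a secreted matrix protein also induced through the Hippo pathway, was at 12, 7.07, 8.98 and 7.83 in the clones, against 13 in MEF and 0.874 in ES. Every clone was below MEF for Tgfbr2, Id3 and Ccn1. Ccn2, a close relative of Ccn1, was not kept: it was at 2.89, 2.16, 16.9 and 8.22 in the clones, against 47.5 in MEF and 4.13 in ES, so only the 4-factor clone was at least 3 times ES. Lats2, a kinase of the Hippo pathway, was at 0.498 to 0.651 in the clones, against 1.06 in MEF and 0.126 in ES.

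Stress, cell cycle and early response genes lay on either side of MEF. Cdkn1a, a cyclin-dependent kinase inhibitor induced by p53, was at 7.06, 9.47, 7.18 and 9.23 in the clones, against 8.89 in MEF and 1.67 in ES. Cdkn2a, whose products restrain the cell cycle and stabilise p53, was at 1.29, 1.28, 0.722 and 1.04 in the clones, against 0.813 in MEF and 0.122 in ES. For both genes the clones lay on either side of MEF. Of 4 genes of the p53 and senescence list that met the MEF condition, these 2 were kept, against 13.4% of all such probes. Dkk3, a secreted modulator of Wnt signalling, was not kept and was 258 times brighter in MEF than in the clones. Gadd45g, a growth arrest gene, was at 18.4, 12, 84.4 and 16.5 in the clones, against 41 in MEF and 3.32 in ES, with only the 4-factor clone above MEF. Jun, a subunit of the AP-1 transcription factor, was at 2.46, 2.41, 2.25 and 1.94 in the clones, against 1.67 in MEF and 0.288 in ES, with every clone above MEF. Egr2, a serum-induced zinc finger factor, was at 0.682, 0.627, 0.343 and 0.404 in the clones, against 0.959 in MEF and 0.056 in ES, with every clone below MEF. Ier5, the brightest in MEF of the early response genes that met the MEF condition and were not kept, reached 3 times ES in 3 of the 4 clones.

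Of the cytokine and chemokine list, the genes kept were Cxcl1 and Il6. Cxcl1, a neutrophil chemokine, was at 3.96, 3.48, 2.78 and 5.25 in the clones, against 0.374 in MEF and 0.0721 in ES. This was 10.1 times MEF on average, and the mean of the clones was 52.2 times ES. Il6, a cytokine, was at 0.496, 0.383, 0.301 and 0.586 in the clones, against 0.201 in MEF, and was not well above background in ES. All 4 clones were above MEF for both genes. Of 13 cytokine and chemokine genes that met the MEF condition 2 were kept, against 13.4% of all such probes. Cxcl12, a stromal chemokine, was 69.1 times brighter in MEF than in the clones, and Ccl2 2.58 times. Ackr3, a receptor that takes up Cxcl12, was at 3.74, 2.8, 3.21 and 1.6 in the clones, against 1.22 in MEF and 0.127 in ES.

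**Figure D3:**
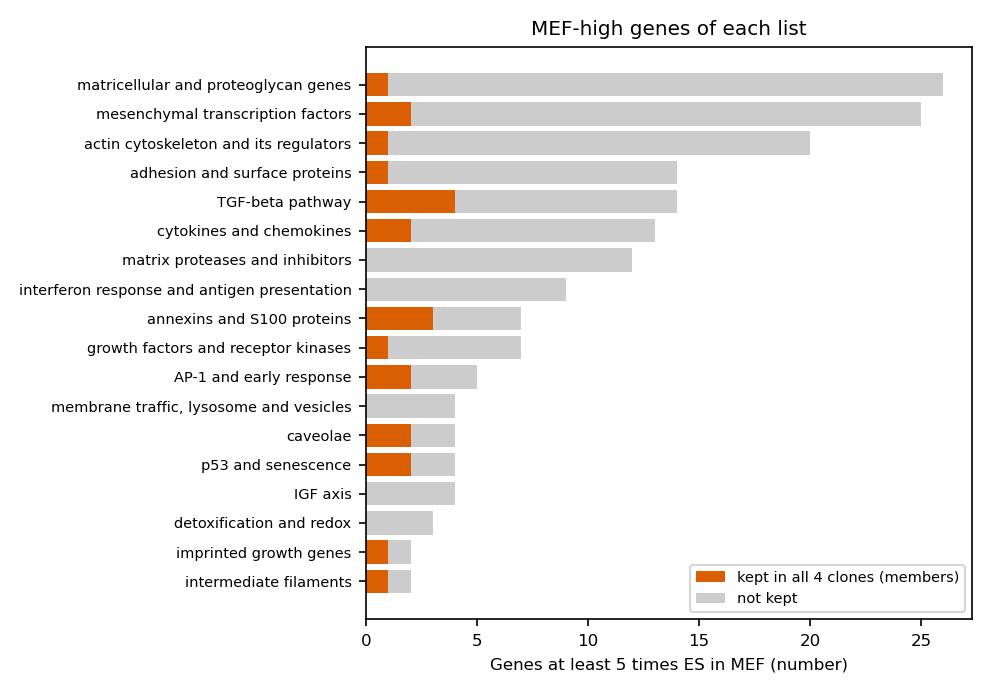
Genes of each list that met the MEF condition (bar length, number of genes), split into those kept in all 4 clones (orange) and those not kept (grey). Matrix, transcription factor and actin genes make the longest bars, with 1 of 26, 2 of 25 and 1 of 20 kept. Of all probes that met the MEF condition 13.4% were kept.

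Matrix and contractile genes follow. Of all probes that met the MEF condition 13.4% were kept, and counts of kept genes this small are not told apart from that share. Fbn1, the microfibril protein fibrillin, was at 0.523, 0.463, 0.304 and 0.272 in the clones, against 7.53 in MEF and 0.0848 in ES, a difference of -4.32, clones minus MEF. It was the one gene kept of 26 matricellular and proteoglycan genes that met the MEF condition. Actc1, the cardiac alpha-actin, was at 0.173, 0.189, 0.216 and 0.235 in the clones, against 13.6 in MEF and 0.0572 in ES. It passed the rule at a 67.3-fold lower mean than in MEF. Vgll3, a cofactor of TEAD factors, was at 0.399, 0.525, 0.546 and 0.563 in the clones, against 3.08 in MEF and 0.13 in ES. For these 3 genes all clones lay nearer to ES than to MEF on the log2 scale. Parva, an adaptor between integrins and actin, was the one gene kept of 20 actin cytoskeleton genes, at 1.82, 2.15, 0.734 and 1.54 in the clones, against 3.19 in MEF and 0.158 in ES. Every clone was below MEF. Tagln, an actin-binding protein of smooth muscle, was 150 times brighter in MEF than in the clones. Ddr2, a receptor kinase for fibrillar collagen, was at 1.29, 0.838, 0.854 and 0.713 in the clones, against 2.22 in MEF and 0.158 in ES. Fstl1, a secreted glycoprotein of mesenchyme, was at 22.7, 18.7, 25 and 20.1 in the clones, against 58.2 in MEF and 3.06 in ES. Snx7, a sorting nexin of endosomes, was at 1.67, 1.98, 1.65 and 1.8 in the clones, against 5.65 in MEF and 0.546 in ES. Every clone was below MEF for Ddr2, Fstl1 and Snx7, by 2.46, 2.71 and 3.19 times on average.

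The lists of matrix proteases and inhibitors (12 genes that met the MEF condition), interferon response and antigen presentation (9), insulin-like growth factor axis (4), membrane traffic (4) and detoxification (3) had no kept gene. The growth factor Igf2 was well above background in the clones only with 4 factors, at 0.711, and with 10 factors, at 1.25, against 104 in MEF and 1.84 in ES. Gsto1, a glutathione transferase, missed the rule through 1 clone: it was at 12.1 and 15.9 in the 3-factor clones, 71 with 4 factors and 63 with 10 factors, against 77.1 in MEF and 5.13 in ES. Of all probes that met the MEF condition 13.4% were kept, and no list count was tested against that share. The lists were chosen with results of these data known, so their counts are a description.

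Among regulators of transcription and chromatin, 2 of 25 mesenchymal transcription factors that met the MEF condition were kept, against 13.4% of all such probes. Tbx15, a T-box factor of limb and skeletal mesenchyme, was at 1.44 and 1.36 in the 3-factor clones, 0.183 with 4 factors and 0.495 with 10 factors, against 1.06 in MEF and 0.0537 in ES. Only the 3-factor clones were above MEF. Nfix, a nuclear factor I protein, was at 0.907, 0.833, 1.81 and 1.11 in the clones, against 2.64 in MEF and 0.272 in ES, with every clone below MEF. Its relative Nfia was also chosen, at 0.23 to 0.477 in the clones, against 0.443 in MEF. Prrx1 and Prrx2, homeobox factors of limb mesenchyme, were not kept and were 26.1 and 17.3 times brighter in MEF than in the clones. Smarca2, an ATPase of the SWI/SNF chromatin remodelling complexes, was at 1.18, 1.08, 1.25 and 1.1 in the clones, against 0.523 in MEF and 0.0966 in ES. Mbd2, which binds methylated CpG, was at 2.42, 2.4, 2.08 and 2.22 in the clones, against 2.97 in MEF and 0.384 in ES. Every clone was above MEF for Smarca2 and below it for Mbd2. The paternally expressed imprinted gene Peg3 was at 1.09 and 1.21 in the 3-factor clones, 0.257 with 4 factors and 0.688 with 10 factors, against 0.39 in MEF and 0.0743 in ES, with only the 4-factor clone below MEF.

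Beside Cxcl1, the genes that stood most above MEF were Ano1, Tmem45a, Adh7, Palmd and Tmem238. Ano1, a calcium-activated chloride channel, was at 2.48, 1.84, 5.66 and 1.63 in the clones, against 0.276 in MEF, and was not well above background in ES. The mean of the clones was 9.21 times MEF. Adh7, an alcohol dehydrogenase that oxidises retinol, was at 0.737, 1.19, 11.6 and 3.5 in the clones, against 0.579 in MEF, and was not well above background in ES, which makes the clones at least 67.2 times ES. Tmem45a, a transmembrane protein, was at 39.8, 35.4, 4.22 and 6.55 in the clones, against 2.9 in MEF and 0.515 in ES. All clones were above MEF for these 3 genes, but the clones that were brightest differed. Palmd, a cytosolic relative of paralemmin, was at 1.3, 0.938, 2.33 and 1.44 in the clones, against 0.44 in MEF and 0.0561 in ES. Tmem238 was at 1.0, 1.06, 0.679 and 0.833 in the clones, against 0.275 in MEF and not well above background in ES. Every clone was above MEF for both genes as well.

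The promoters of 5 of these genes are shown, 2 from the bright calcium-binding group, 2 from the genes with a serum response motif and the matrix gene Ccn1. They are the 150 bases before the annotated start, from RefSeq on build GRCm38.p6, 5′ to 3′ on the gene's strand, with motif matches in capitals. In Anxa2 (chr9:69453533-69453682, plus strand) and S100a11 (chr3:93520346-93520495, plus strand) the capitals mark TGANTCA, the AP-1 motif, and in Anxa2 also TATAAA. In Egr2 (chr10:67537416-67537565, plus strand) and Actc1 (chr2:114052876-114053025, minus strand) they mark a CArG box, the motif of serum response factor, and in Egr2 also GGAATG, the TEAD motif. In Ccn1 (chr3:145649986-145650135, minus strand) they mark the TEAD motif, on the other strand, and TATAAA.
Anxa2: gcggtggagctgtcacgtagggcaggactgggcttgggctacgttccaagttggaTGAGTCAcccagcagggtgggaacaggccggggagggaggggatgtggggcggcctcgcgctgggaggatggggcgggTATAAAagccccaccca
S100a11: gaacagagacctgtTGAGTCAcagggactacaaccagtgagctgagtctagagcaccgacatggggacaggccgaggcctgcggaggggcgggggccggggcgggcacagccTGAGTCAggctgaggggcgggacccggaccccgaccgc
Egr2: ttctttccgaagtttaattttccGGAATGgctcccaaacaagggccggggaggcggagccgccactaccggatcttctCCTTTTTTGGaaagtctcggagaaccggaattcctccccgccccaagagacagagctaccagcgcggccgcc
Actc1: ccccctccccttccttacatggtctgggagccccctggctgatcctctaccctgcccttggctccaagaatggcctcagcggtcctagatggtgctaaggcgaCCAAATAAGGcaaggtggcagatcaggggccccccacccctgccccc
Ccn1: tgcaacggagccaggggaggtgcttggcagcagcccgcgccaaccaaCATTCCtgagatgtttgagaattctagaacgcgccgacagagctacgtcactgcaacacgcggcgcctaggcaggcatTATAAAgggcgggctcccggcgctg

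The first base of the AP-1 match lay at -95 in Anxa2 and at -136 and -38 in S100a11, counted from the start. The CArG box began at -72 in Egr2 and -47 in Actc1. Each motif was searched on both strands in 300 bases around the start (250 before, 50 after), and the matches shown do not overlap. Promoters were found for 68 of the 86 genes, 94 in all because some genes have several starts. The AP-1 motif was in 13.8% of these 94 and in 7.81% of all 32851 promoters of the table, and the CArG box in 6.38% and 1.63%. By gene, 3 of 68 chosen genes held a CArG box (Actc1, Egr2 and Nfix), 4.41% against 1.81% of all genes. Several starts of Egr2 held a match, which raises the share by promoter. The Egr2 promoter shown was picked among 5 starts for its number of matches. The AP-1 motif was in 17.6% of chosen genes and 8.97% of all. The TATA motif was in 12.8% and 13.6% of promoters but in 17.6% and 15.7% of genes, so its order turns. The TEAD motif was in 12.8% and 14.7% of promoters and in 14.7% and 16.6% of genes. The motifs were picked with the genes known, a match is not evidence of binding, and no test was made.

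The 3 arrays that the rule did not use show where these genes were also on. In unselected MEF 75 of the 95 probes (78.9%) were well above background and at least 5 times ES, against 4.97% of all probes. The share among the 638 unchosen probes that met the MEF condition was 60.8%. In NIH3T3 HRasV12 the count was 51 (53.7%), against 3.46% of all probes and 35.9% of the unchosen ones. All 3 unused arrays were at least 5 times ES for 32 chosen probes (33.7%), against 12.9% of the unchosen and 0.695% of all probes. The same ES array is the divisor throughout and helped to choose the probes, so these shares are a description. Only 5 chosen probes reached 5 times ES on none of the 3 arrays. Cxcl1 was at 0.226 in unselected MEF and 0.065 in NIH3T3 HRasV12, under every clone. Actc1 and Fbn1 were at 11 and 5.65 in unselected MEF, over every clone, and at 0.692 and 0.18 in NIH3T3 HRasV12.

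**Figure D4:**
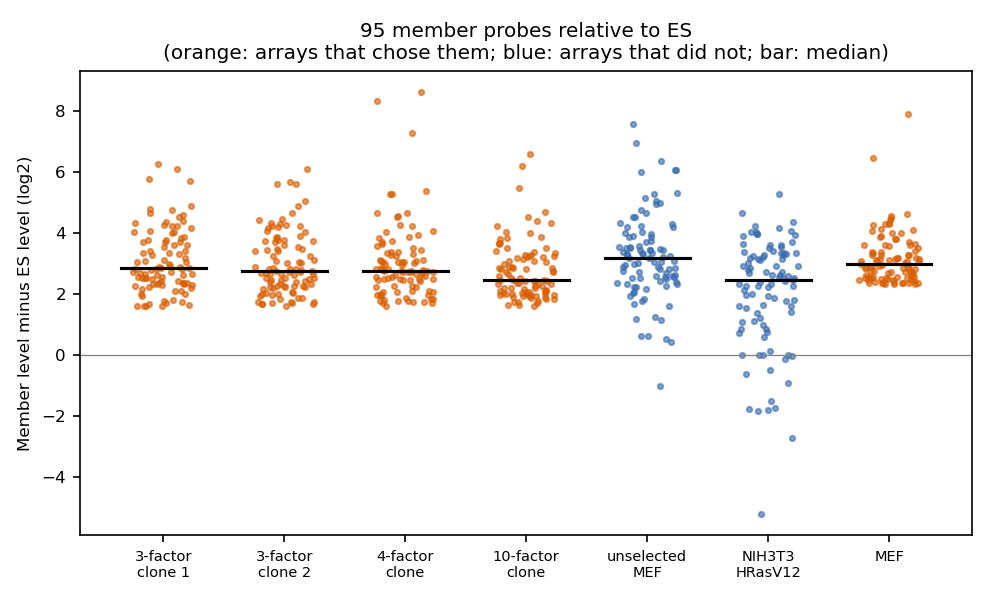
Level minus ES level (log2) of the 95 probes on each array, with a bar at the median; blue arrays did not choose the probes. The unselected MEF spread around a similar median to MEF, with 1 probe below 0 (Peg3), against 12 in the NIH3T3 HRasV12 cells. Points at the floor share a value.

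Of the 95 probes, 93 were well above background in unselected MEF, against 53.9% of all probes, and 85 in NIH3T3 HRasV12, against 52.4%. The unchosen probes that met the MEF condition are the closer comparison: the share in unselected MEF was 97.9% for chosen and 97.3% for unchosen probes, and in NIH3T3 HRasV12 89.5% and 79.3%. The 2 chosen probes not well above background in unselected MEF were Peg3 and Znrf1, a ubiquitin ligase that was at 0.116, 0.121, 0.141 and 0.156 in the clones, against 0.186 in MEF. Those not well above background in NIH3T3 HRasV12 that were brightest in MEF were Anxa8, 2900026A02Rik, Ptprz1, Cdkn2a and Tmem176a. 2900026A02Rik was at 2.18, 1.72, 1.61 and 1.11 in the clones, against 0.86 in unselected MEF and 1.42 in MEF. Anxa8 was at 91.1 in unselected MEF, above all clones and MEF. Every clone was above all 3 unused arrays for 12 probes and below all 3 for 9, where 11.6% and 13.3% of 11507 probes did so, which puts both counts near the background.

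Between clones, 63 of the 95 probes (66.3%) stayed within 2-fold from the lowest to the highest clone, against 72.4% of the 10611 probes well above background in all 4 clones. A range over 4-fold was found for 9 of the 95 (9.47%), against 7.18%. The median ratio of the highest to the lowest clone was 1.78, against 1.58 over the 10611 probes. The 3-factor clones, which shared a scan date, were the closest pair. All 95 probes were within 2-fold, against 98.8% of the 10611, with a median difference of 0.15, against 0.17. The remaining 5 pairings had medians of 0.35 to 0.5 over the 95 probes, against 0.31 to 0.39 over the 10611. The 10-factor clone was the lowest for 40 of the 95 probes and the highest for 13, but the same counts over the 10611 probes were not made. Narrow genes were Cavin3, Smarca2, Mbd2 and Snx7, with a highest clone 1.06 to 1.2 times the lowest. A second, dimmer probe of Smarca2 was not narrow. It was at 0.135 and 0.153 in the 3-factor clones, 0.322 with 4 factors and 0.33 with 10 factors. Wide genes were Ptprz1, Adh7, Tmem45a, Tbx15 and Mcub, with a highest clone 7.37 to 106 times the lowest. Ptprz1, a receptor phosphatase of the nervous system, was at 14.2 in the 4-factor clone and at 0.187, 0.172 and 0.134 in the others, against 0.896 in MEF. Mcub, which inhibits the mitochondrial calcium uniporter, was at 1.67 and 1.21 in the 3-factor clones, 0.227 with 4 factors and 0.485 with 10 factors, against 0.48 in MEF and 0.0667 in ES.

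The 3-factor clones (n = 2) were tested against the 4- and 10-factor clones (n = 2) with limma over 13544 probes, two-sided. With Benjamini-Hochberg adjustment at 0.05, 0 probes were higher and 2 lower (0% and 0.0148%), and none of the 95 was among them. At an unadjusted p under 0.05 there were 3074 probes (22.7%), and 23 of the 95 (24.2%), close to that background. The lowest adjusted p of a chosen probe was 0.1, for Tgfb2, with a difference of 1.90 ± 0.09 (SE). Its adjusted p was 0.048 to 0.9 under the alternatives. No gene of the 18 lists was called in either direction. Both 3-factor clones were above both others for 33 of the 95 (28.5% of the 13544 tested probes) and below for 17 (24.7%). They were at least 2-fold above for 10 (4.96% of the tested probes) and at least 2-fold below for 6 (7.51%).

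The larger differences were mostly for genes already named. Tmem45a differed by 2.84 ± 0.28 (limma SE, adjusted p = 0.11), Tbx15 by 2.22 ± 0.59 (0.19), Mcub by 2.10 ± 0.49 (0.17) and Anxa8 by 1.75 ± 0.40 (0.17), higher in the 3-factor clones but not past the threshold. Adh7 differed by -2.76 ± 0.76 (limma adjusted p = 0.19), with both 3-factor clones under both others. Scan date and factor number cannot be told apart here, since the 3-factor clones shared a scan date and the 4- and 10-factor clones another. Leaving out the 10-factor clone, limma called Tgfb2, Tbx15, Cdkn2a and Capn2 higher and Ptprz1 and 1 unnamed probe lower, at adjusted p of 0.045 to 0.0494; that fit called 1.11% of all probes higher and 3.94% lower. Leaving out the 4-factor clone, it called Tgfb2 (adjusted p = 0.0485) and Irx2 (0.0486) higher; that fit called 0.642% of all probes higher and 3.9% lower. Counts this small are not told apart from those shares. In these fits the lone clone is assumed to vary like the pair. Nothing in the labels says that samples came from separate cultures beyond being separate clones, so p-values measure the spread between these samples.

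**Figure D5:**
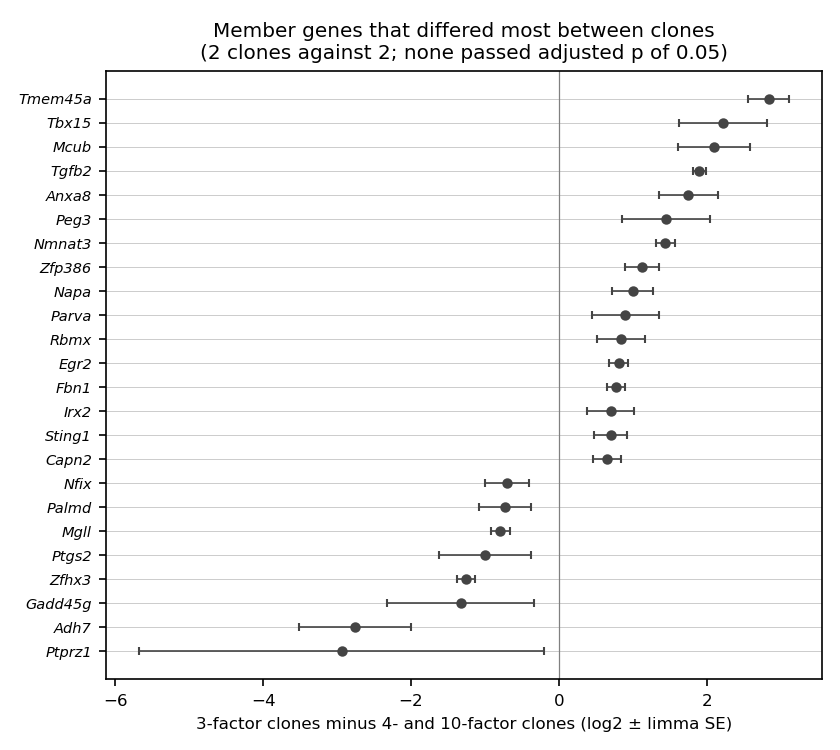
Difference in log2 level, 3-factor clones minus 4- and 10-factor clones, for the 24 named genes with the largest differences (points; bars are the limma SE; 2 clones against 2). Tmem45a, Tbx15, Mcub and Tgfb2 are to the right and Ptprz1 and Adh7 to the left; none passed an adjusted p of 0.05.

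The rule's limits fell within close neighbours. For MEF over ES, Hexim1 (5.03) was just inside, S100a6 was inside at 5.05 or more because its MEF spot was saturated, and Msl3 and Stk25 (both 4.92) just outside. For the lowest clone over ES, Snx7 (3.01) and Zfhx3 (3.02) were inside and Lhfp and Emp3 (both 2.99) outside. Other probes of 10 chosen genes were on the array, 11 in all and 9 well above background in MEF. For those 9, both MEF and the mean of the clones were above ES. The mean of the clones was at least 3 times ES for 4 of the 9 and MEF at least 5 times ES for 2, both of Cd47, a surface signal against phagocytosis. A second probe of Nr1i3, a nuclear receptor, was not well above background in MEF or ES.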

How the data were processed

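Per the file headers, the deposited files hold intensity values that the authors made with Agilent Feature Extraction 8.5.1.1, background-subtracted and not normalized between arrays. Flags of each spot (well above background, saturated) are the authors' deposited values too; the background multiple is 2.6. The deposited series value table differed from the scanner values by at most 0.497% for probes spotted once and served as an alternative. Control spots (736) and outlier spots were left out, repeated spots were averaged, each array was divided by its 75th percentile, and values were then floored at 0.0363. Of the 95 probes, 71 were named through RefSeq accessions, 8 through RIKEN clones and 9 from words of the probe description; the tables give symbols of assembly GRCm38.p6. The 3-factor clones were compared with limma 3.58.1 (lmFit, eBayes, R 4.3.3) over probes that passed as well above background on 50% or more of either group's arrays. On simulated data of these 13544 probes the test recovered 0, 26, 41 and 40 of 50 changes of 2-, 4-, 8- and 16-fold, and called 5 unchanged probes. The simulation drew normal noise with each probe's spread among these clones. It changed only 200 probes, none of them among the dimmest. These rates therefore need not hold for the real comparison. Tables and plots used Python 3.11.15. Named genes were the 12 brightest, those most above ES or above and below MEF, list members, the widest and narrowest between clones, those dim in the unused arrays and those at the rule's limits. Genes outside these were chosen after their values were seen: Nfia, Lats2, Irx2, Capn2, Cd47 and Nr1i3, and Col1a1, Lum and S100a4 among the markers. Members, lists and named genes were chosen with earlier results of these data known. The own values of the immortalised MEF array, and of some genes that the naming rule selects, are not reported here. The number of arrays limits the precision.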

Additional observations from a re-analysis of the deposited data

Results flagged for a closer look

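In 44 named genes the highest or lowest of the 4 clones was set against the others by Dixon's test at 95%, which chance alone passes for about 1 group in 20. The 4-factor clone stood apart for Ptprz1, at 14.2, with the other clones at 0.187, 0.172 and 0.134. The 10-factor clone stood apart for Id3, at 3.47, with the others at 6.03, 6.24 and 5.97, and for Tmem176a, at 0.388, with the others at 0.655, 0.638 and 0.609. Each rests on 1 array, and its cause was not tested.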

How the results depend on the processing

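The number of chosen probes was within 1.5 times the 95 reported under 12 of 17 settings and moved under 5. It was 161 with arrays scaled to the median (89 shared with the 95), 18 with normexp background correction, whose added offset of 50 draws ratios of dim probes together (17 shared), 30 at a MEF limit of 10-fold, 171 at a clone limit of 2-fold and 46 at a clone limit of 5-fold. Without 1 clone it was 99 to 125. With the unselected MEF in place of MEF it was 135, of which 75 were shared. The median difference of the chosen probes, clones minus MEF, was -0.32 and stayed between -0.37 and -0.19; leaving out each clone for it was added after seeing the data and gave -0.37 to -0.22. For the 3-factor clones, probes called higher were 0 (1671 at an unadjusted p under 0.05), but 20 with no filter on dim probes and 80 with the spread pooled over all 9 arrays; without 1 clone they were 0 to 150. Probes called lower were 2, but 0 scaled to the median, with normexp, with a trend in the prior and with probes above background in all 4 clones, 1 with the lower of both floors tried, 20 with no filter and 46 with the pooled spread; without 1 clone they were 0 to 533. Chosen probes called higher were 0, and 0 to 4 without 1 clone; called lower, 0, and 0 to 2 without 1 clone. The cause of these changes was not tested. A block for scan date was not run, since scan date and group cannot be told apart. No paired analysis was possible because the groups compared share at most replicate number 1.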
